A study of Vitis vinifera with 6 samples.

Results

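The genes described here are those with many reads and nearly the same share of reads in every RNA library of embryogenic callus (EC) and leaf of the grapevine cultivar Chardonnay. Reads on each gene were divided by all counted reads of the library and given per 1000000 (CPM). A gene was taken where it had at least 50 CPM in all 6 libraries and where its highest CPM was at most 1.5 times its lowest. These limits were met by 253 genes, which is 14.2% of the 1783 genes that had at least 50 CPM in every library and 0.795% of the 31843 genes counted. The genes were chosen by these same CPM values, so their levels, their spread and their differences between the tissues are given as a description, with no test. The transposable element (TE) families were not candidates in the choice, although their reads are part of the library total. With CPM over gene rows only, 253 genes also met the rule, of which 242 were shared. The genes were then used as a reference set to scale the TE families.

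A sequencing library gives shares and not amounts, so a rise in some transcripts lowers the share of all others. Genes with a steady level are therefore used as a yardstick, in RT-qPCR as a few reference genes and in RNA-seq as a set from which a scale factor per library is taken. The trimmed mean of M-values (TMM) works on the same principle with the features left after those of extreme ratio or level are trimmed. Its premise is that the majority do not differ between samples. TEs are mobile sequences whose transcripts are normally kept low in plants by DNA methylation and small RNAs. Copia and Gypsy elements are retrotransposons with long terminal repeats and LINEs are retrotransposons without them. CACTA, hAT, MULE and Harbinger elements move as DNA, Helitrons by rolling circles, and Caulimovirus families derive from viral sequences.

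EC consists of dividing cells that have lost the features of their tissue and can form somatic embryos. It was raised from anthers of the vines, grown on solid medium in the dark and harvested 4 months after callus formation, with cultures of 3 Petri dishes pooled in each of 3 EC samples. Each of the 3 leaf samples was a pool of 5 leaves, picked young from those vines at a diameter below 30 mm. All samples were of the genotype of the cultivar, with no other treatment named, and ribosomal RNA was depleted from all of them. The identity of the vine or dish behind a replicate is not given, so the p-values below measure the spread between these pooled samples. EC and leaf differed in light, culture and tissue of origin at once, and the libraries are of bulk tissue, in which fewer cells that express a gene and less RNA per cell cannot be told apart.

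The libraries held 22572723, 22280342 and 24209752 counted reads for EC replicates 1 to 3, against 23642329, 21914215 and 13123072 for leaf replicates 1 to 3. Leaf replicate 3 stood apart from the other libraries. Its 100 genes with the most reads took 36.4% of its counts, against 15.1% to 16.96% in EC and 18.0% to 18.8% in the other leaf libraries. The main results below that turn on it are given with and without it. None of the gene identifiers of the count table was found in the reference table, so the genes are named by identifier, their products are not given, and whether familiar reference genes such as those of actin or ubiquitin are among them was not analysed here. For the same reason the leaf and dividing-cell marker lists were not applied, and the tissue labels were not checked against markers.

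The 253 stable genes together took 3.17%, 3.16% and 3.22% of the counts in the EC libraries, against 3.17%, 3.13% and 2.94% in the leaf libraries. The lowest share was that of leaf replicate 3, with a 95% Wilson interval of 2.93% to 2.95% that covers counting error only. Their mean CPM over the 6 libraries ran from 54.4 to 739, with a median of 89.5 and quartiles of 70.8 and 132. The 1530 genes that passed the limit of 50 CPM but had a wider spread had more reads, with a median of 148 CPM. Of the stable genes, 144 had under 100 CPM, 80 had 100 to 200 CPM, 29 had 200 CPM or more, and 5 of these had 500 CPM or more. CPM is not divided by transcript length, so this order is one of reads and not of transcripts. The smallest count behind any value was 668 reads, and the median over genes of the smallest count was 1134 reads.

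The 5 stable genes with the most reads were VIT_213s0047g00822, VIT_210s0116g01210, VIT_200s0229g00110, VIT_200s0125g00020 and VIT_219s0015g00670. VIT_213s0047g00822 had 789, 696 and 661 CPM in EC libraries 1 to 3, against 790.5, 682 and 818 CPM in leaf libraries 1 to 3. Its highest value was in leaf replicate 3, and the tissues overlapped. VIT_210s0116g01210 had 640.1, 752 and 715 CPM in EC and 628, 642 and 707 CPM in leaf, which also overlapped. VIT_200s0229g00110 stood at 610.5, 639 and 663 CPM in EC, against 678, 683 and 552 CPM in leaf. Here leaf replicate 3 was the lowest library while leaf replicates 1 and 2 were the highest, so that the ratio of the EC mean to the leaf mean was 1.00. VIT_200s0125g00020 had 737, 591 and 731 CPM in EC, against 558, 563 and 530.4 CPM in leaf, with every EC library above every leaf library and a ratio of the means of 1.25. VIT_219s0015g00670 had 510.0, 540.4 and 562 CPM in EC and 513, 529 and 431 CPM in leaf, a spread of 1.304-fold with leaf replicate 3 as the lowest library.

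The smallest spread was that of VIT_209s0002g02470, with 64.2, 63.4 and 66.9 CPM in EC and 66.3, 63.8 and 65.2 CPM in leaf. Its highest value was 1.06 times its lowest, and its coefficient of variation (CV) of 2.196% was below the 2.75% that counting alone gives at this depth. VIT_208s0056g00810 followed with 60.4, 58.2 and 61.5 CPM in EC and 60.0, 56.5 and 58.9 CPM in leaf, and VIT_207s0031g02420 with 62.5, 62.7 and 66.2 CPM in EC and 65.3, 63.7 and 68.1 CPM in leaf. Both were within 1.09-fold over the libraries. Among genes with more reads, VIT_208s0040g03310 had 138, 131 and 136 CPM in EC and 139, 131 and 144 CPM in leaf, within 1.099-fold. VIT_203s0017g00680 had 185, 171 and 167 CPM in EC and 184, 173 and 171 CPM in leaf, within 1.105-fold. In each of these 5 genes the tissues overlapped.

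Few of the 253 genes were as flat as these. The ratio of highest to lowest CPM had a median of 1.33, 33 genes were within 1.2-fold, 4 were within 1.1-fold and 81 were above 1.4-fold. The CV over the 6 libraries had a median of 11.4%, against a median of 2.37% expected from counting, and was under 2 times the counting value in only 7 genes. At the limit of 1.5-fold, VIT_204s0023g00370 (1.499-fold) and VIT_208s0058g01370 (1.499-fold) lay just inside, while VIT_203s0038g04400 (1.501-fold) and VIT_201s0011g06300 (1.501-fold) lay just outside. At the limit of 50 CPM, VIT_209s0002g04430 with a lowest value of 50.2 CPM was just inside and VIT_212s0057g00550 with 49.6 CPM just outside. With the minimum at 20 CPM 579 genes met the rule, and with it at 100 CPM 79 did. A limit of 1.3-fold left 89 genes and a limit of 2-fold admitted 704.

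**Figure D1:**
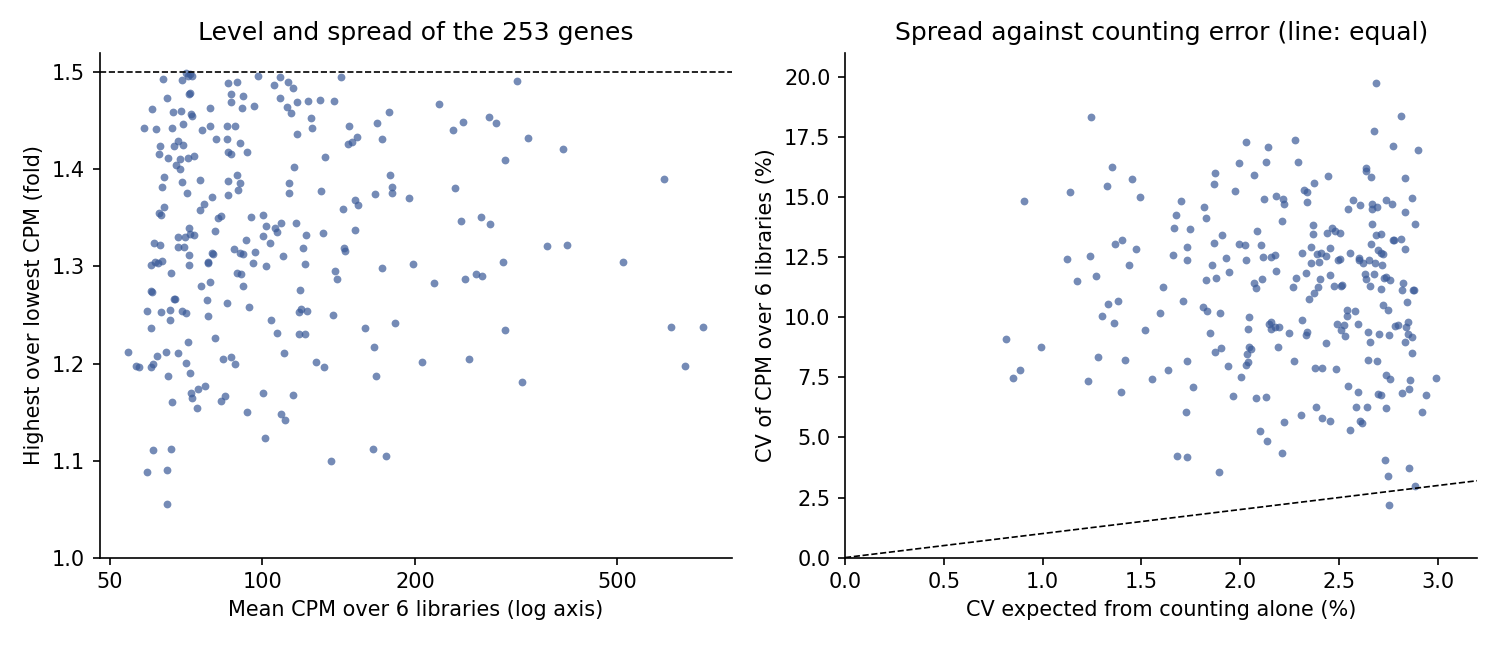
Each point is 1 of the 253 stable genes. Left, mean CPM over the 6 libraries (log axis) against the highest CPM over the lowest, with the 1.5-fold limit dashed. The points run from 1.06 to 1.499, and those of the 10 genes with the most reads lie between 1.18 and 1.43. Right, the CV expected from counting alone (%) against the CV observed over the 6 libraries (%), with the line of equality dashed; the medians are 2.37% and 11.4%, and nearly all points lie above the line.

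The spread was not the same within the tissues. The highest over the lowest CPM had a median over genes of 1.09 among the 3 EC libraries and of 1.19 among the 3 leaf libraries, and the SD of log2 CPM was smaller among EC than among leaf libraries in 187 of the 253 genes. Without leaf replicate 3, leaf replicates 1 and 2 differed by a median of 1.04-fold. Leaf replicate 3 was the lowest library in 110 genes (43.5%), the highest in 40 and within the range of the other 5 libraries in 103. In the 1530 genes with a wider spread it was the lowest in 959 (62.7%). EC replicate 3 was most often the highest library of the stable genes, in 58 of them. Over the 5 libraries without leaf replicate 3, the median of highest over lowest CPM was 1.24, and 98 of the genes lay within 1.2-fold.

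**Figure D2:**
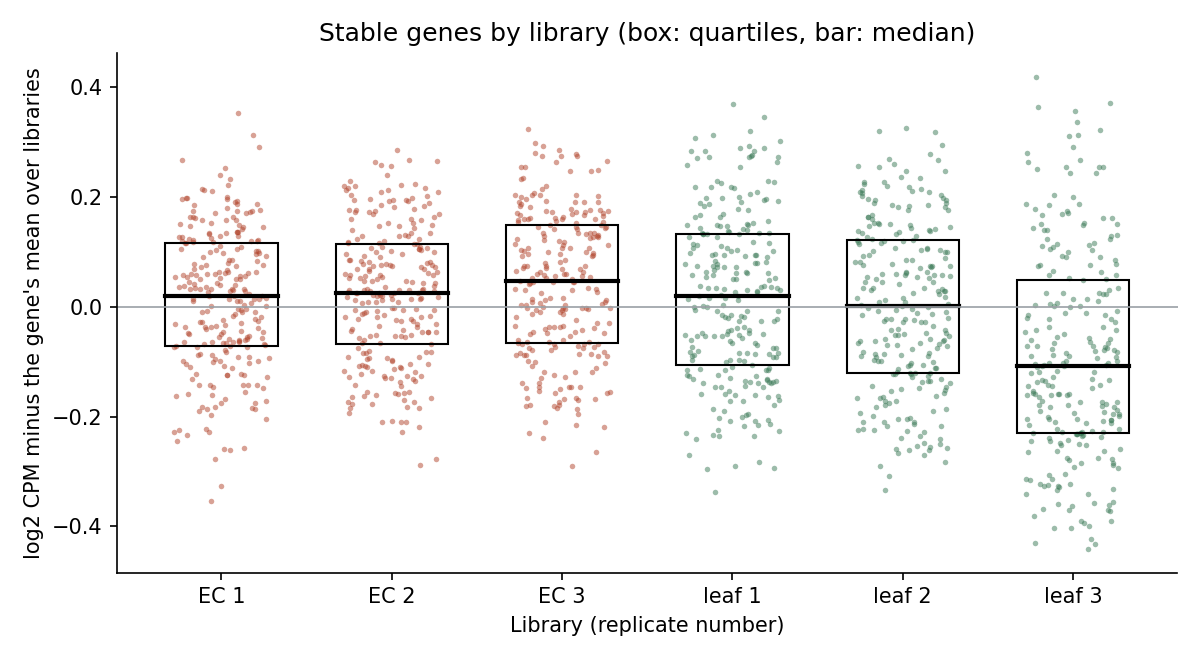
Points are the 253 stable genes in each library, as log2 CPM minus the mean of that gene over the 6 libraries, with EC libraries (red) left of leaf libraries (green); boxes give the quartiles and bars the medians. The medians are 0.02, 0.03 and 0.05 in EC 1 to 3, against 0.02, 0.00 and -0.11 in leaf 1 to 3, so leaf 3 sits lowest.

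A limit of 1.5-fold leaves room for steady differences between EC and leaf. The ratio of the mean CPM in EC to that in leaf ran from 0.750 to 1.399, with a median of 1.04. It was above 1 in 144 genes and below 1 in 109, and 100 genes had means within 1.1-fold of each other. In 75 stable genes (29.6%) every EC library was above every leaf library, and in 36 (14.2%) every EC library was below. Among all 21550 genes and TE families that passed the filter on low counts, these shares were 48.6% and 24.4%. Against leaf replicates 1 and 2 alone, every EC library was above both in 93 stable genes (36.8%) and below both in 79 (31.2%). The share of all features was not computed for that comparison. The rule used these values, so nothing is read from these differences. In VIT_211s0016g05820, with the largest ratio, EC libraries stood at 73.2, 76.8 and 76.6 CPM and leaf libraries at 52.1, 54.1 and 55.9 CPM. In VIT_219s0014g02520, with the smallest ratio, EC libraries stood at 262, 283 and 270.6 CPM and leaf libraries at 391, 309 and 388 CPM. Neither gene had overlapping tissues, although both were within 1.5-fold over all libraries.

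The stable genes were spread over the genome. The chromosome digits of the identifiers placed 243 of them on all 19 chromosomes and 10 under the number 0, which names no chromosome. Their share of the genes with at least 50 CPM ran from 8.33% on chromosome 15 (5 of 60) to 20.2% on chromosome 11 (17 of 84). Among the stable genes, 8 had another stable gene directly beside them in the order of identifiers of the counted genes. The number that random placement would give was not computed. By the SD of the log2 ratio to every other stable gene, a measure of likeness over 6 libraries that geNorm-style methods use, VIT_200s0475g00040 was closest to the rest with a mean SD of 0.155, against a median of 0.209. It had 62.3, 62.3 and 62.9 CPM in EC and 60.9, 60.7 and 56.6 CPM in leaf.

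The number of stable genes depended on leaf replicate 3 more than on any other library. When the rule was applied to 5 libraries with 1 of the others left out, 268 to 282 genes met it, of which the 253 were 89.7% to 94.4%. With leaf replicate 3 left out, 1293 genes met the rule, of which the 253 were 19.6%. The other 1040 failed in leaf replicate 3 alone, 969 of them by a low value there and 71 by a high one. Over all 1293, the CPM in leaf replicate 3 was a median of 0.549 times the mean of the other 5 libraries, and 541 (41.8%) stood more than 1 log2 unit below it. Together the 1293 genes took 10.9% of the counts of leaf replicate 3, against 18.9% to 19.9% in the other libraries. In that library 36.4% of the counts lay on 100 genes, as given above. The part of that in the low values was not tested.

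**Figure D3:**
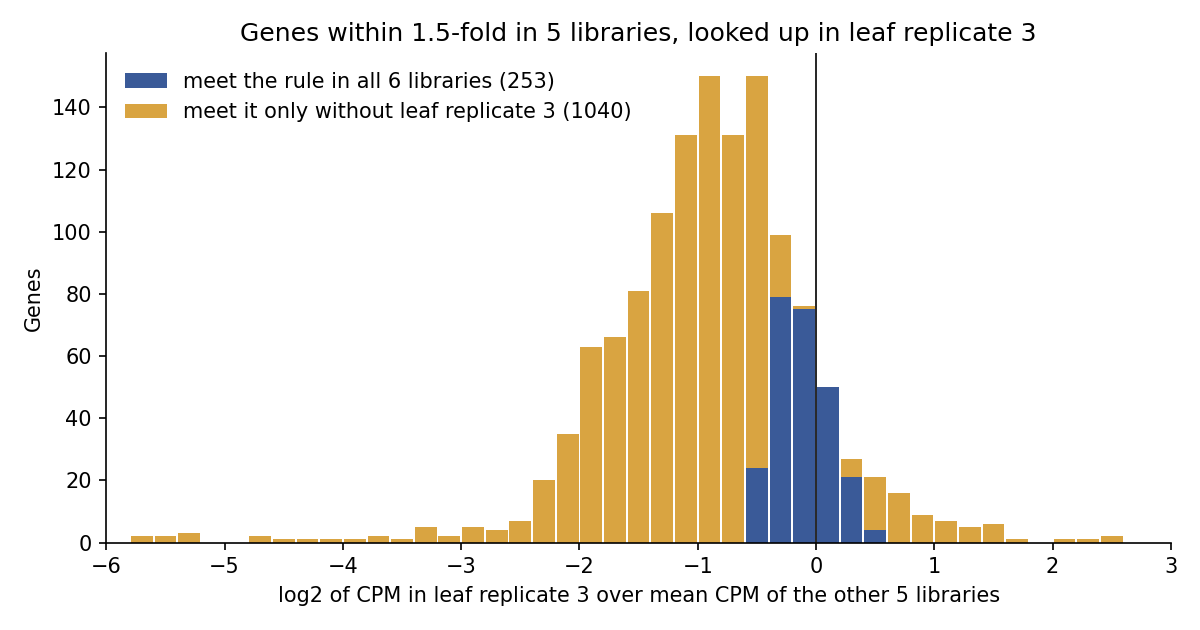
Histogram of the 1293 genes that met the rule in the 5 libraries without leaf replicate 3, by the log2 of their CPM in leaf replicate 3 over the mean CPM of the other 5 libraries. The 253 genes that also met the rule in leaf replicate 3 (blue) lie around 0, and the other 1040 (yellow) lie mostly below, with the median of all 1293 at -0.86.

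The choice of scale decided which genes counted as stable. TMM factors, with which each library size is multiplied, were 1.15, 1.19 and 1.19 for EC libraries 1 to 3, against 0.961, 0.974 and 0.658 for leaf libraries 1 to 3. After scaling by them, 61 of the 253 genes (24.1%) were still within 1.5-fold, and the median of highest over lowest was 1.71. Leaf replicate 3 was then the highest library in 249 of the 253. With all 6 libraries all 253, the 75 with the higher CPM in every EC library included, had a lower mean in EC on this scale. Every EC library was below every leaf library in 176 (69.6%), beside 34.0% of all features on the same scale. The genes were chosen for a flat CPM, and the factors were larger in every EC library than in every leaf library. These counts therefore follow largely from the rule and the factors, and nothing is read from them. The rule applied to TMM-scaled values gave 575 genes, of which the 61 shared were 10.6%. With DESeq2's size factors it gave 585 genes, and the 43 shared were 16.996% of the stable genes and 7.35% of the 585.

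Differences between EC and leaf were tested over all genes and TE families with the quasi-likelihood method of edgeR at a Benjamini-Hochberg adjusted p under 0.05, and the stable genes are read from that fit as a description. With TMM, 91 of the 253 (35.97%) were called lower in EC and 0 higher in the fit of 6 libraries (edgeR). All 253 had a log2 fold change below 0 in that fit, which follows largely from the rule and the factors, as above. With TMM in edgeR, 24.9% of all 21550 features tested were called higher and 29.2% lower. DESeq2 with its own size factors called 144 stable genes lower and limma-voom with TMM 101, with 0 higher in each. Of all 21550 features, DESeq2 called 6018 higher and 7265 lower, and limma-voom 6080 and 6076. These member calls turned on single libraries. Without leaf replicate 3, 6 stable genes were called higher and 141 lower, 44 of the 253 had a log2 fold change above 0, and 38.5% and 41.3% of all features were called higher and lower. Without EC replicate 1, 2 or 3, the stable genes called lower numbered 26 (10.3%), 17 (6.72%) and 12 (4.74%). Without leaf replicate 1 or 2 they numbered 59 (23.3%) and 73 (28.9%), with 0 called higher in each of these 5 fits (edgeR). In the same order, the features called lower were 4511 of 22578, 4534 of 22542, 4412 of 22487, 5552 of 21842 and 5818 of 21872. Those called higher numbered 3634, 3570, 3383, 3901 and 4284. The stable genes had a median log2 fold change of -0.43 with TMM, and of -0.25 without leaf replicate 3. With libraries scaled by the stable genes themselves their median lies near 0 by construction, so their calls on that scale are not given. The median of all features was -0.04 with TMM and 0.38 with stable-gene scaling, a shift of 0.41, and relative to it the median of the stable genes was -0.40 with TMM and -0.37 with stable-gene scaling. With stable-gene scaling the common biological CV of the fit was 0.137 without leaf replicate 3, against 0.425 with it.

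As a reference set, the 253 genes gave scale factors of 1.01, 1.02 and 1.03 for EC libraries 1 to 3, against 1.01, 1.00 and 0.940 for leaf libraries 1 to 3. The factor of a library is the geometric mean of the CPM of the genes in it, divided by the geometric mean over libraries. Genes chosen for a flat CPM give factors close to 1 by construction, so this scale stays near that of the library size. On it, the 232 TE families took 29121, 30099 and 31266 reads per 1000000 in EC, against 14524, 14690 and 18168 in leaf. All EC libraries were above all leaf libraries, and leaf replicate 3 was the highest of its tissue. The means were 30162 ± 1074 in EC and 15794 ± 2058 in leaf (SD, n = 3 libraries each), a ratio of 1.91 with an SD of 0.211 over pairs of libraries. By exact permutation of the libraries (two-sided) p was 0.1, below which 3 against 3 cannot go.

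Smaller sets of stable genes, which are flat in CPM by choice, gave ratios near that of the library size, whereas single genes gave a wider range. The 10 genes with the smallest spread gave 1.99, the 10 with the most reads 1.92, and library sizes alone 1.98. With limits of 1.3-fold and 2-fold the ratio was 1.95 and 1.82. Each of the 253 genes was also used as the only reference. The ratio of TE reads then ran from 1.42 with VIT_211s0016g05820 to 2.62 with VIT_219s0014g02520, the genes at either end of the EC to leaf ratio. Its quartiles were 1.69 and 2.14 and its median 1.89. The rule holds each gene within 1.5-fold in CPM, so this ratio cannot lie more than 1.5-fold from that of library sizes. The range is a description, and the genes are not separate tests.

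Reference sets that were not held flat in leaf replicate 3 gave smaller ratios over the 6 libraries. All 1783 genes with at least 50 CPM gave factors of 1.07, 1.08 and 1.08 in EC, against 1.02, 1.02 and 0.765 in leaf, and a TE ratio of 1.68. TE reads then stood at 27452.5, 28405 and 29664 per 1000000 in EC, against 14350, 14344 and 22309 in leaf. All EC libraries were thus still above all leaf libraries (exact permutation p = 0.1). The 1293 genes flat in the other 5 libraries, a set added after the data had been seen, gave a factor of 0.599 in leaf replicate 3. TE reads then stood at 26546, 26938 and 28472 per 1000000 in EC, against 13598, 13458 and 28510 in leaf, so that leaf replicate 3 was above all EC libraries (ratio 1.47, exact permutation p = 0.4). With TMM the values were 25563, 25766 and 26986 in EC and 15276, 15089 and 25928 in leaf (ratio 1.39, exact permutation p = 0.3). Against leaf replicates 1 and 2 alone, also added after seeing the data, the ratio was 2.06 with the stable genes, 2.09 with library sizes, 2.02 with the 1293 genes and 1.72 with TMM, and all EC libraries were above both leaf libraries with each of these 4 scales.

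**Figure D4:**
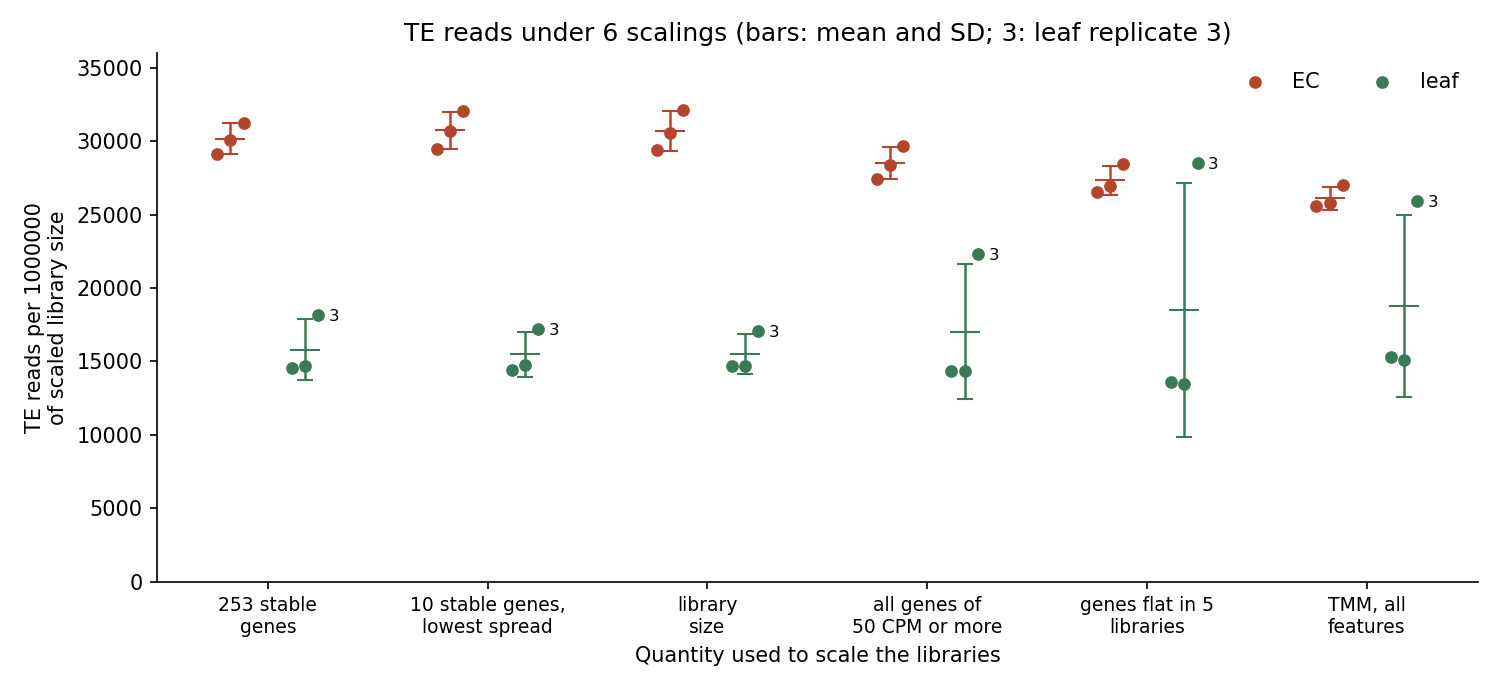
TE reads per 1000000 of scaled library size, for 6 quantities used to scale the libraries. Points are libraries, EC (red) left of leaf (green), with the mean and SD (n = 3 each) and leaf replicate 3 marked 3; under the 253 stable genes EC libraries lie at 29121 to 31266 and leaf libraries at 14524 to 18168, and leaf replicate 3 reaches the EC libraries with the genes flat in 5 libraries and with TMM.

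By superfamily, scaling by the stable genes put all EC libraries above all leaf libraries in each of the 9 (exact permutation p = 0.1, Benjamini-Hochberg adjusted p = 0.1 over the 9, the smallest possible). LINE families took 12693 ± 751 reads per 1000000 in EC and 6164 ± 1003 in leaf (SD, n = 3 each), a ratio of 2.06. Copia families took 8202 ± 294 in EC and 4340 ± 813 in leaf, a ratio of 1.89. MULE families took 3144, 3096 and 3040 in EC libraries against 1360, 1296 and 1337 in leaf libraries, a ratio of 2.32 with the smallest spread of all (SD 0.0604 over pairs). The other ratios were 2.42 for Harbinger, 2.08 for hAT, 1.98 for CACTA and 4.79 for the single Helitron family, which rested on 28, 19 and 30 reads in EC libraries and 4, 6 and 3 reads in leaf libraries.

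Gypsy and Caulimovirus had the smallest ratios, and these turned with the reference. Gypsy families took 3755, 3660 and 3675 reads per 1000000 in EC libraries against 2593, 2576 and 3038 in leaf libraries, a ratio of 1.35. With single stable genes as the reference the Gypsy ratio ran from 1.00 to 1.85, and all EC libraries were above all leaf libraries with 186 of the 253 genes (73.5%). Such ranges and counts, here and for Caulimovirus below, follow largely from the rule and are given as a description. With TMM the ratio was 0.989 and the tissues overlapped, leaf replicate 3 at 4335 being the highest library. Against leaf replicates 1 and 2 alone, with the same TMM factors and added after seeing the data, all EC libraries were above both leaf libraries (3296, 3133 and 3172 in EC against 2727 and 2646 in leaf, ratio 1.19). Caulimovirus families stood at 253, 275 and 281 in EC libraries against 223, 212 and 169 in leaf libraries, a ratio of 1.34. All EC libraries were above all leaf libraries with 174 of the 253 genes (68.8%), and with TMM the ratio was 1.01. Without leaf replicate 3 it was 1.03 with TMM, and the tissues still overlapped. Copia overlapped between the tissues with TMM as well, with a ratio of 1.37 and leaf replicate 3 as the highest library at 7532. Without that library the Copia ratio with TMM was 1.76, with all EC libraries above both leaf libraries. LINE families were barely apart with TMM, with a ratio of 1.49. They stood at 10480, 10872 and 11600 in EC libraries against 5792, 5821 and 10445 in leaf libraries. With DESeq2's size factors (ratio 1.45) and with genes chosen on TMM-scaled CPM (ratio 1.48) the tissues overlapped for LINE families.

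**Figure D5:**
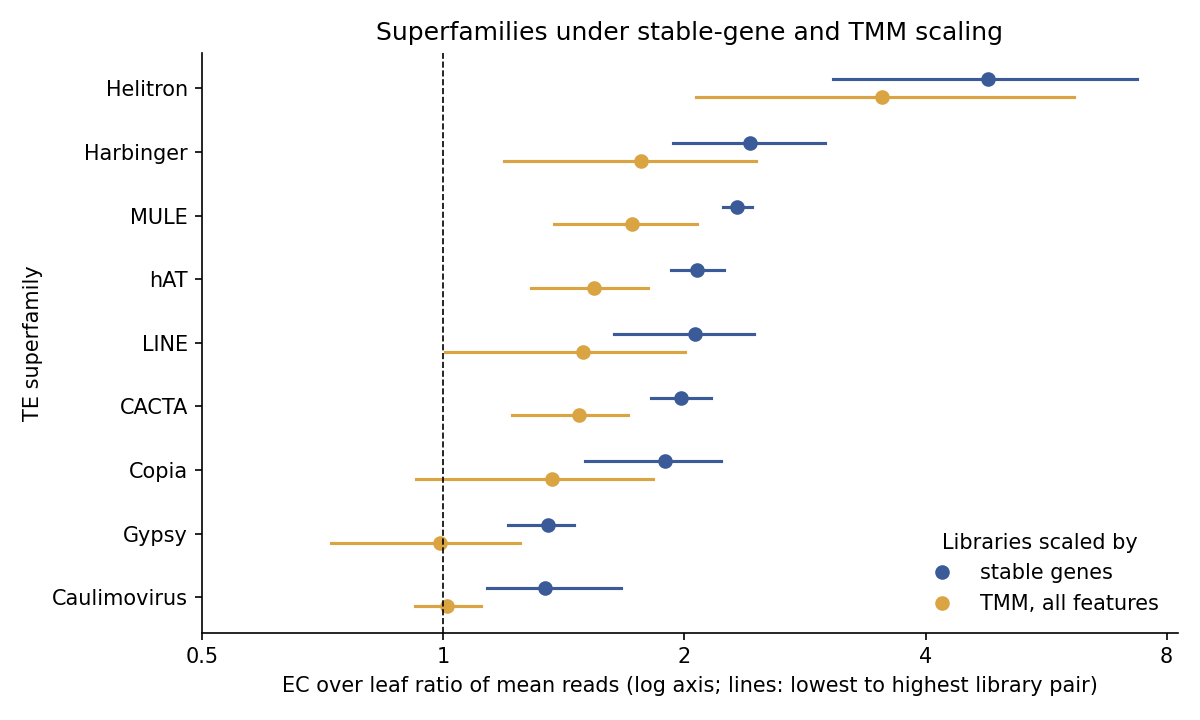
Ratio of mean reads in EC over leaf (log axis) for the 9 TE superfamilies, with libraries scaled by the 253 stable genes (blue) and by TMM (yellow); lines run from the lowest to the highest ratio of 1 EC library to 1 leaf library, and the dashed line marks equal levels. The blue points lie between 1.34 and 4.79, each yellow point lies to the left of its blue one, and the yellow points for Gypsy (0.989) and Caulimovirus (1.01), which include leaf replicate 3, lie at the dashed line.

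At the level of single TE families, 211 without the Caulimovirus families passed the filter on low counts. With stable-gene scaling 137 were higher and 9 lower in EC (edgeR, Benjamini-Hochberg adjusted p under 0.05 over all features), beside 33.9% and 22.9% of all features tested. The median log2 fold change of the families was 1.03, or 0.66 above the median of all features. With TMM 78 were higher and 15 lower, beside 24.9% and 29.2% of all features, with a median of 0.57, or 0.61 above that of all features. The 78 were all among the 137, and the 9 were all among the 15. On the stable-gene scale all EC libraries were above all leaf libraries in 162 families and below in 13, beside 47.6% and 25.2% of all features. Without leaf replicate 3 the families higher and lower numbered 168 and 16 with stable-gene scaling, beside 46.4% and 35.7% of all features, and 152 and 24 with TMM, beside 38.5% and 41.3%. With any 1 of the other 5 libraries left out, they numbered 97 to 115 and 3 to 7 with stable-gene scaling, and 38 to 46 and 5 to 12 with TMM. The lowest counts of higher families, 97 and 38, were without EC replicate 3, and the highest of these, 115 and 46, without leaf replicate 2.

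The largest rises were in families that were called with either scale. Copia-95 had 19.3, 17.9 and 14.2 reads per 1000000 in EC libraries, against 0.460, 0.502 and 0.487 in leaf libraries (log2 fold change 5.13, SE 0.254, edgeR adjusted p = 0.000266). Copia-70 had 97.2, 81.4 and 70.5 in EC against 5.31, 5.57 and 3.97 in leaf, a log2 fold change of 4.06 (SE 0.233). MULE-Mutavine-18 had 291.5, 277 and 259 in EC against 16.1, 15.8 and 27.4 in leaf, a log2 fold change of 3.80 (SE 0.293). Copia-52 and Copia-50 each rose by 3.90 on the log2 scale (SE 0.494 and 0.410). Copia-52 had 146, 150 and 217 reads in EC libraries, against 15, 13 and 2 in leaf libraries. Copia-50 had 348, 364 and 386 reads in EC against 29, 30 and 6 in leaf. Copia-95 had 440, 404 and 354 reads in EC against 11, 11 and 6 in leaf. The few leaf reads limit how well the sizes of these Copia rises are known. In all 5 families named here the libraries of the tissues were far apart.

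The largest falls were smaller in size than the largest rises. Gypsy-18 had 104.4, 104.6 and 104.7 reads per 1000000 in EC, against 602, 703 and 272 in leaf, with leaf replicate 3 the lowest of its tissue (log2 fold change -2.33, SE 0.386, edgeR adjusted p = 0.00434). CACTA-4 had 3.16, 3.40 and 4.90 in EC against 13.4, 16.3 and 26.4 in leaf, where leaf replicate 3 was the highest (log2 fold change -2.29, SE 0.352). Next came Copia-37 with a log2 fold change of -1.64, Copia-7 with -1.54 and Copia-61 with -1.44. Copia-37 had 21 to 32 reads in EC libraries and 59 to 66 in leaf libraries, and Copia-61 had 21 to 27 and 39 to 57. With the replicate number as a block, Copia-37 and Copia-61 were not called (edgeR adjusted p = 0.0524 and 0.0613), while the other named falls were.

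The scale changed the call for 65 families, 59 of which were higher in EC with stable-gene scaling and not called with TMM, and 6 of which were lower with TMM and not called with stable-gene scaling. LINE families, which copy themselves through RNA, were among the first kind as a whole. All 10 were called higher with stable-gene scaling, with log2 fold changes of 0.86 to 1.24, of which 3 remained called without EC replicate 2 and 3 without EC replicate 3. With TMM the log2 fold changes were 0.41 to 0.76 and 0 of 10 were called (edgeR, 0 at an unadjusted p under 0.05). DESeq2 with its own size factors and limma-voom with TMM also called 0, with 1 and 3 at an unadjusted p under 0.05. Without leaf replicate 3, all 10 were called higher with TMM too, with log2 fold changes of 0.67 to 1.18. The LINE family with the most reads, LINE-VLINE1, had 2020, 2162 and 2277 reads per 1000000 in EC, against 950.2, 984 and 1219 in leaf. Its log2 fold change was 1.04 (SE 0.231, edgeR adjusted p = 0.0116) with stable-gene scaling and 0.57 (SE 0.305, edgeR adjusted p = 0.162) with TMM. LINE-VLINE5 and LINE-VLINE2 gave the same pair of calls. With stable-gene scaling and the replicate number as a block, LINE-VLINE1 and LINE-VLINE5 were not called (edgeR adjusted p = 0.0535 and 0.0542). LINE-VLINE2 was still called (edgeR adjusted p = 0.0482). With scaling by the genes chosen without leaf replicate 3, added after seeing the data, 0 of the 10 LINE families were called. Reads that map to several of these related families were divided among them before deposit, so the 10 are not independent.

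The limits of the stable genes were also applied to TE families. Of the 46 with at least 50 CPM in all libraries, 2 were within 1.5-fold. Copia-49 had 77.6, 72.9 and 81.3 CPM in EC, against 74.8, 82.3 and 105 CPM in leaf, with the tissues overlapping. Gypsy-V1 had 88.5, 91.8 and 94.1 CPM in EC, against 67.5, 64.9 and 72.1 CPM in leaf, with every EC library above every leaf library. The 2 families were 4.35% of the 46, whereas 14.2% of genes at this level met the same limits.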

How the data were processed

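RNA was measured in 3 EC and 3 leaf samples by paired-end sequencing of stranded libraries on 1 lane. Per the study's methods, the authors trimmed reads to a minimum length of 36, removed those from tRNA and rRNA, mapped the rest with HISAT2 to the PN40024 12X genome and counted genes of annotation V2.1 and TE families together with TEtranscripts. The counts deposited by the authors are whole and not normalised. Strand use in counting is not given in the sources used here, so overlapping and near-identical genes may share reads. The table has 6 columns of counts and 0 others per sample. The 2 genes that the study removed were not used here.

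CPM were computed over all rows. The stable genes, lists and tests were chosen with earlier results of these data known. Tests used edgeR 4.0.16 under R 4.3.3 on all rows at once (filterByExpr with minimum count 10 and total 15, robust glmQLFit, glmQLFTest), with TMM or with library sizes multiplied by the stable-gene factor, and p-values were adjusted by Benjamini-Hochberg over the 21550 features kept. The SE of a log2 fold change was its size over the square root of F. The code was tested on simulated data. Single values were compared with two-sided exact permutation tests (scipy 1.17.1).

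Genes named are the first by reads, by spread, by EC to leaf ratio and at the limits. TE families named are the 5 largest rises and falls that were called and did not overlap, the 3 with most reads whose call changed with the scale, and those that met the limits. The symbol lists for reference, leaf and dividing-cell genes were not applied, since 0 identifiers matched the reference table. Alternatives were other limits, scale factors and reference sets, DESeq2 1.42.0, limma-voom (limma 3.58.1), other filters, the replicate number as a block and each library left out. The sets without leaf replicate 3 used for scaling, and the TE ratios against leaf replicates 1 and 2 alone on other scales, were added after the data had been seen. The floor of 3 counts per library was 0.124 to 0.135 CPM in EC and 0.127 to 0.229 CPM in leaf. The chi-square per gene between libraries of a tissue was 11.5 to 25.2 in EC and 12.4 to 427 in leaf, so no pair was a duplicate.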

Additional observations from a re-analysis of the deposited data

How the results depend on the processing

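The number of stable genes, 253, was 579 and 79 with minimums of 20 and 100 CPM, 89 and 704 with limits of 1.3-fold and 2-fold, 575 on TMM-scaled and 585 on DESeq2-scaled CPM, and 268 to 1293 with each library left out, the 1293 being without leaf replicate 3. The TE ratio, 1.91, was 1.39 with TMM, 1.35 with DESeq2's size factors, 1.68 with all genes of at least 50 CPM, 1.38 with genes chosen on TMM-scaled CPM and 1.47 with genes chosen without leaf replicate 3 (added after seeing the data), and 1.84 to 2.06 with each library left out. The superfamilies with all EC libraries above all leaf libraries, 9, numbered 5 with DESeq2's size factors, with genes chosen on TMM-scaled CPM and with genes chosen without leaf replicate 3. Gypsy turned below 1 with TMM (0.989), DESeq2's size factors (0.958) and genes chosen on TMM-scaled CPM (0.980), and Caulimovirus with DESeq2's size factors (0.978). The cause was not tested.

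TE families higher and lower in EC, 137 and 9, numbered 78 and 15 with TMM, 76 and 17 with DESeq2's size factors, 77 and 15 with genes chosen on TMM-scaled CPM, and 67 and 10 with genes chosen without leaf replicate 3. With each library left out 97 to 168 were higher and 3 to 16 lower, with fewer samples in each such fit. With the replicate number as a block 112 were higher and 4 lower, and LINE families called higher numbered 6 in place of 10. Same-numbered libraries had correlations of deviations of 0.003, 0.1002 and 0.112, each EC library correlating best with its own number. The margins were small for EC replicate 1, with 0.0009 for leaf replicate 2, and for EC replicate 2, with 0.0971 for leaf replicate 1. The design states no pairing, so the numbers were not taken to pair the samples. Of all features with TMM, 5365 were called higher and 6290 lower, and 3383 to 8685 higher and 4412 to 9304 lower with each library left out, the highest counts without leaf replicate 3. With TMM, the block gave 55 TE families higher and 7 lower, and 25 stable genes lower in place of 91. Of all 21550 features, 3850 were then called higher and 5008 lower. Depth limits the Helitron ratio, which rests on 28, 19 and 30 reads in EC and 4, 6 and 3 in leaf.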
